A study of Mus musculus with 36 samples.

Results

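The genes described are 30 genes of astrocytes and of Bergmann glia, the radial astrocytes of the cerebellar cortex. They are genes known for these cells, and they were chosen with earlier results of these data known. Each gene was read by its brightest probe set, the one of highest mean signal over all arrays. They are 30 of the 18193 genes that had a probe set with 1 gene symbol. The 24 resting genes are expressed by astrocytes of healthy tissue, and the 6 reactive genes (Gfap, Vim, Cd44, Serpina3n, Lcn2 and Timp1) are known for their induction when astrocytes respond to injury or disease. A filter on low signal kept all 24 resting genes in both tissues. Of the reactive genes it kept 3 in cerebellum (Gfap, Vim and Cd44) and 5 in forebrain, where only Lcn2 was left out, so 27 members were tested in cerebellum and 29 in forebrain.

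Astrocytes take up glutamate and potassium released at synapses, are joined to each other by gap junctions, and line blood vessels with endfeet rich in water channels. Bergmann glia ensheath the synapses of Purkinje cells and carry much of the glutamate uptake of the cerebellar cortex. In the reactive state, described in epilepsy among other conditions, astrocytes are known to raise intermediate filaments such as Gfap and, depending on the stimulus, secreted and surface proteins.

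The material was total RNA from forebrain and cerebellum of mice, hybridised to 36 one-colour Affymetrix arrays in 12 groups of 3. The groups were stg-/-, stg+/+, tg-/-, tg+/+, lh-/- and lh+/+, each in forebrain and in cerebellum. The line symbols were read as stargazer (Cacng2), tottering (Cacna1a) and lethargic (Cacnb4), mouse lines with absence seizures and ataxia caused by changes in calcium channel genes. The labels leave these names unspelled, give no age, sex or strain, and call the +/+ animals of these lines mutant mice too. They do not say clearly whether each array is a separate animal, so p-values measure only the spread between these samples.

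Cacng2 checked the stg labels, with signals of 3.91 ± 1.28 (SD, n = 3) in stg-/- and 636 ± 188 in stg+/+ cerebellum and a log2 difference of -5.26 in forebrain. Cacnb4 was lower in lh-/-, by a log2 difference of -1.08 in forebrain (adjusted p = 0.0285) and -0.61 in cerebellum (adjusted p = 0.0814). The tottering mutation is a change of the protein sequence and not a deletion, so Cacna1a checks nothing. The summed signal of 7 granule cell markers was 25356 to 33189 on cerebellar and 1037 to 2055 on forebrain arrays, which matches the tissue labels. No pair of arrays held identical values, and the highest correlation between arrays was 0.964. On 3 forebrain arrays (stg+/+ replicates 1 and 2 and lh+/+ replicate 3) the pituitary transcripts Gh and Prl stood at 2086 to 6052, against at most 195 on the other arrays.

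Values are the deposited signal intensities, which share a common trimmed mean over the arrays. Changes are differences of log2(signal + 2.98), -/- minus +/+ within a line. They were tested with limma, fitted to all 18 arrays of each tissue, and called at a Benjamini-Hochberg adjusted p of 0.05 over the 27022 probe sets tested. SD values are over 3 arrays.

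In stg and tg cerebellum most resting genes were higher in the -/- than in the +/+ animals, mostly by small amounts. Of the resting genes 3 passed the test, all in tg, where 2 rose and 1 fell. In stg cerebellum 21 of 24 resting genes had a log2 change above 0, with a median of 0.17 and a range of -0.08 to 0.48. Over all probe sets tested, 52.3% were above 0 and the median was 0.01. None of the 24 resting genes was called by limma, and 7 had an unadjusted p below 0.05, all of them higher (5.29% of all probe sets). The only member called in stg cerebellum was Gfap, with 1.3% of all probe sets called, 0.525% as higher.

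In tg cerebellum 19 of 24 resting genes were above 0, with a median of 0.13, against 48.4% and a median of -0.01 over all probe sets. Among the resting genes Gjb6 and Itih3 rose and Fabp7 fell in tg cerebellum, where 0.574% of all probe sets were called, 0.344% as higher and 0.229% as lower. In lh cerebellum 15 of 24 resting genes were above 0, with a median of 0.07, against 53.9% and a median of 0.02, so the count was nearer to that of all probe sets than in the other lines. No member was called in lh cerebellum, where limma called 0.155% of all probe sets and 5 resting genes had an unadjusted p below 0.05, all higher (4.29% of all probe sets). In bulk tissue, more cells of a type and more RNA per cell cannot be told apart.

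Other settings added calls in cerebellum. With the 20 earlier and 16 later deposited records as a block within each line, Aqp4 (adjusted p = 0.0275) and Gja1 (adjusted p = 0.0478) rose in lh, where 0.507% of all probe sets were called. The same block called Gjb6 (adjusted p = 0.0485) and Apoe (adjusted p = 0.0191) in stg, with 2.55% of all probe sets, and Hepacam (adjusted p = 0.0258) in tg, with 1.06%. With quantile normalization Aqp4 (adjusted p = 0.0370) and Sparc (adjusted p = 0.0285) rose in lh, with 0.159% of all probe sets called.

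The median of the resting genes on each array, taken relative to the 9 +/+ arrays of the tissue, showed which arrays carried these shifts. In stg cerebellum it was 0.16 to 0.24 on the -/- arrays and -0.02 to 0.08 on the +/+ arrays. In tg cerebellum it was 0.06 to 0.24 on the -/- arrays and -0.03 to 0.01 on the +/+ arrays. The groups did not overlap in either line. In lh cerebellum the ranges of 0.01 to 0.15 and -0.08 to 0.10 overlapped. In forebrain the -/- and +/+ ranges overlapped in stg and lh, and in tg the -/- arrays (-0.01 to 0.04) overlapped the +/+ arrays (-0.13 to -0.01) at one end.

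In cerebellum stg-/- replicate 2 was the highest of the 18 arrays for 9 members (Gfap, Aldh1l1, Sox9, Apoe, Clu, Slc4a4, Ntsr2, Sparc and Gdf10). The array of lh+/+ replicate 3 was the lowest for 7 (Cd44, Slc1a2, Aldh1l1, Apoe, Clu, Slc4a4 and Sparc). Without the former the resting median was 0.14 in stg, against 0.17 with it, and without the latter it was 0.04 in lh, against 0.07.

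**Figure D1:**
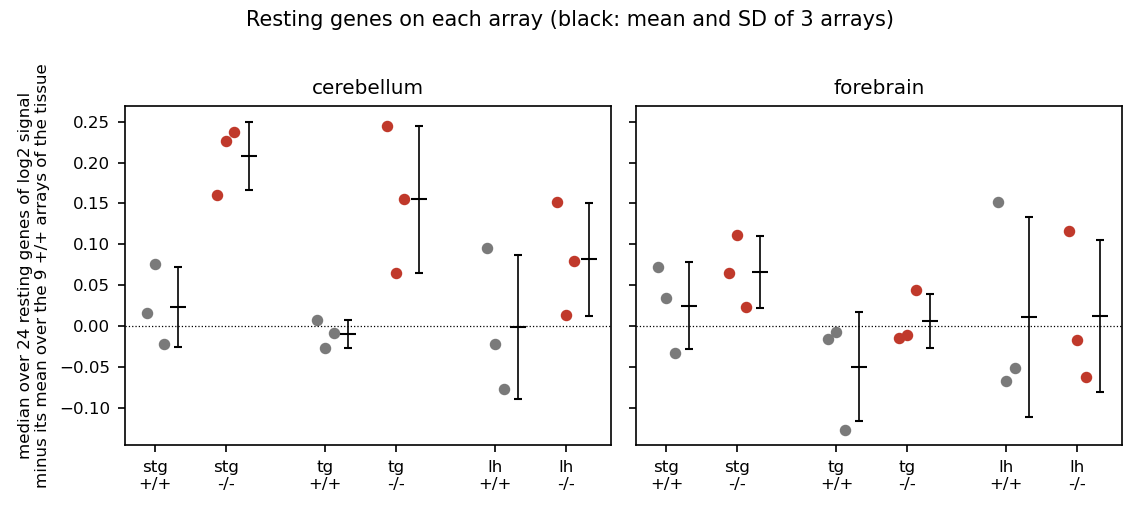
Median over the 24 resting genes of the log2 value minus each gene's mean over the 9 +/+ arrays of the tissue, 1 point per array, for cerebellum and forebrain. Grey points are +/+ arrays and red points -/- arrays. In stg and tg cerebellum the -/- arrays lie above the +/+ arrays, while in lh cerebellum and in forebrain the ranges overlap.

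Averaging the 3 line effects in cerebellum, 19 of 24 resting genes were above 0 (51.7% of all probe sets), with a median of 0.13. Of the resting genes 4 rose (Gjb6, Sparc, Gja1 and Hepacam) and none fell, and of the reactive genes Gfap rose. The fit called 1.97% of all probe sets for this mean effect, 1.04% as higher and 0.933% as lower. The number of members that rose in this mean was 5, with 533 probe sets called. It was 2 with no intensity trend (341 probe sets called) and 8 with the block of records (988). Blocked by replicate number, 11 members rose and 1 fell (1237 probe sets called). With no filter 3 members rose, and with quantile normalization 8. Among the fits with a total given here, more members rose where more probe sets were called. The totals with no filter and with quantile normalization are not given here. A mean over 3 lines can rest on 1 of them, and the values per line follow for each gene.

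Gfap encodes the intermediate filament of astrocytes and is the usual marker of their reactive state. In stg cerebellum its signal was 481, 895 and 491 in -/- and 319, 399 and 239 in +/+. In tg cerebellum it was 586, 409 and 436 in -/- and 346, 335 and 278 in +/+. In lh cerebellum it was 389, 413 and 386 in -/- and 211, 251 and 251 in +/+. Every -/- array lay above every +/+ array of its line, and stg-/- replicate 2 was the highest of the 18. The mean signals were 622 ± 236 and 319 ± 79.9 in stg, 477 ± 95.1 and 320 ± 36.5 in tg, and 396 ± 14.4 and 238 ± 23.0 in lh.

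The log2 change of Gfap was 0.93 (SE 0.21, adjusted p = 0.0283, a 1.90-fold increase) in stg cerebellum. It was 0.56 (SE 0.21, adjusted p = 0.420) in tg and 0.73 (SE 0.21, adjusted p = 0.242) in lh, and neither passed. An F test for unequal effects in the 3 lines gave an adjusted p of 0.933, so no difference between the lines was shown. No member passed that F test in either tissue, where 0.315% (cerebellum) and 0.0259% (forebrain) of all probe sets did. The mean of the 3 lines was 0.74 (SE 0.12, adjusted p = 0.00187, 1.67-fold). The mean effect passed under each of 10 alternatives run and with each of the 18 arrays left out in turn, between 0.64 and 0.80. The call in stg alone was less firm: it was lost without stg-/- replicate 2 (0.63, adjusted p = 0.131), without stg+/+ replicate 1 (adjusted p = 0.0844) and without stg+/+ replicate 3 (0.73, adjusted p = 0.162). It was also lost with no intensity trend (adjusted p = 0.0812) and with the 6 arrays of the comparison fitted alone (adjusted p = 0.148).

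The array holds 3 probe sets for Gfap, and their mean effects in cerebellum were 0.74, 0.79 and 0.66, each called (adjusted p = 0.00187, 0.00424 and 0.0495). In all 3 lines each of the 3 probe sets was above 0, with the lowest value, 0.39, in tg.

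Gjb6 encodes a connexin of astrocyte gap junctions. In stg cerebellum its signal was 887, 1067 and 823 in -/- and 618, 772 and 660 in +/+. In tg cerebellum it was 914, 956 and 850 in -/- and 671, 584 and 607 in +/+. In lh cerebellum it was 1025, 1073 and 949 in -/- and 812, 618 and 733 in +/+. As with Gfap, no -/- array overlapped a +/+ array of its line. The means were 926 ± 126 against 683 ± 79.4 in stg, 907 ± 53.6 against 620 ± 45.2 in tg, and 1016 ± 62.2 against 721 ± 97.7 in lh.

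Gjb6 rose in tg cerebellum, by 0.55 on the log2 scale (SE 0.12, adjusted p = 0.0364, 1.46-fold). The changes of 0.43 in stg (SE 0.12, adjusted p = 0.0837) and 0.50 in lh (SE 0.12, adjusted p = 0.110) did not pass. The mean effect was 0.49 (SE 0.07, adjusted p = 4.02e-04, 1.41-fold), and the F test for a difference among lines gave an adjusted p of 0.976. The mean effect held under all 10 alternatives and all 18 left-out arrays, at 0.46 to 0.52. The call in tg was lost on leaving out any of the 6 arrays (adjusted p = 0.0594 to 0.192) and with no intensity trend (adjusted p = 0.119). Gfap and Gjb6 were the only 2 members whose -/- arrays all lay above the +/+ arrays in each of the 3 lines, a pattern shown by 0.241% of the probe sets tested in cerebellum.

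**Figure D2:**
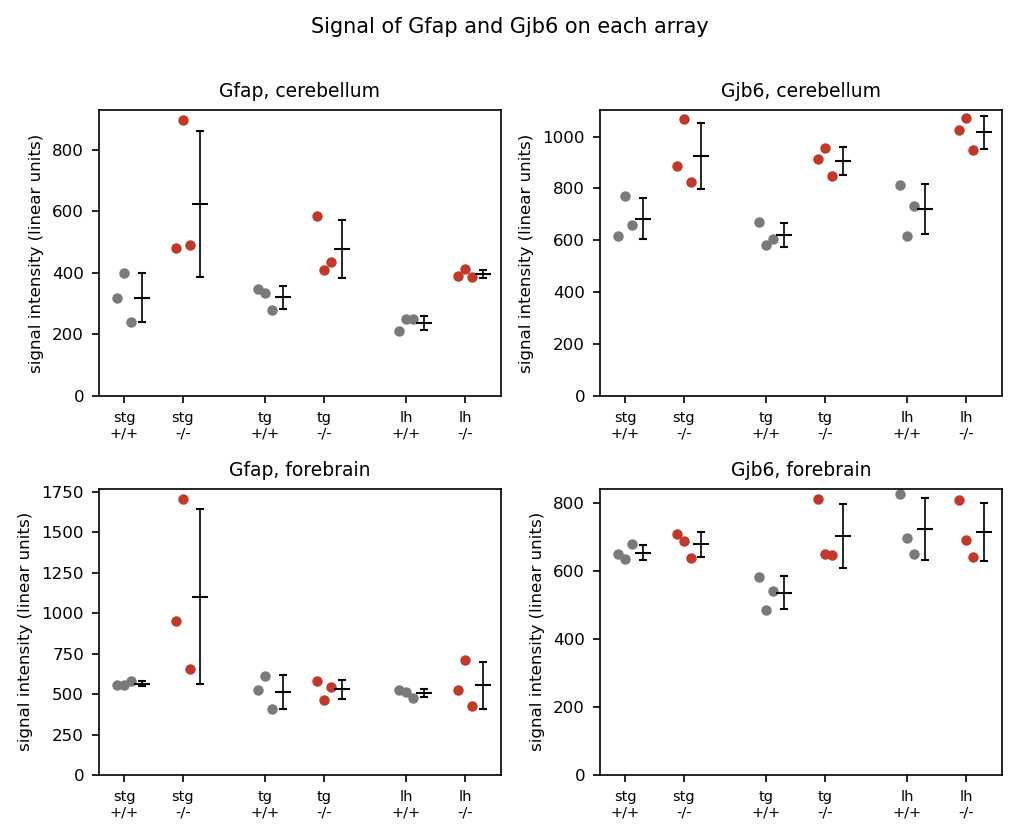
Signal of Gfap and Gjb6 on each array by line and tissue, on a linear axis from 0, with grey points for +/+, red points for -/-, and the mean and SD of each group beside them. In cerebellum the red points of both genes lie above the grey points of their line, and in forebrain stg-/- replicate 2 has the highest Gfap signal, 1704.

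The 250 bases before the annotated starts of Gfap and Gjb6 (RefSeq, build GRCm38.p6, minus strand for both) are shown because these are the members with separated groups in all 3 lines. The Gfap window is chr11:102897201-102897450 and the Gjb6 window chr14:57133612-57133861. Capitals mark a match to the RBPJ motif TGGGAA on either strand.
Gfap: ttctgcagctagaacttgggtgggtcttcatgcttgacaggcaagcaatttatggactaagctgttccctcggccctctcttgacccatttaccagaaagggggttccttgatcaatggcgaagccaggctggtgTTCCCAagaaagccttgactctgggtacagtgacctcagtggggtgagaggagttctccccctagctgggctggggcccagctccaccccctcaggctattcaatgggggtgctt
Gjb6: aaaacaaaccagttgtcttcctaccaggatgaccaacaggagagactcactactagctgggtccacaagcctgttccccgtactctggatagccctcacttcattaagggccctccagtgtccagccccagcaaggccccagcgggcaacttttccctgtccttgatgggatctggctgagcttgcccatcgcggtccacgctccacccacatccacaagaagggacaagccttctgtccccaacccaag
The Gfap window held 1 match, 110 bases before the start, and the Gjb6 window none. Neither held the STAT motif TTCNNNGAA or the AP-1 motif TGANTCA. Of 32536 windows of this length before gene starts, searched on both strands, 21.6% held the RBPJ letters, 7.04% the STAT letters and 6.73% the AP-1 letters. Windows were found for 25 of the 30 members, with more than 1 window for some (32 in all). The RBPJ letters were in a window of 11 members, the STAT letters of Slc1a3, Aldoc and Ntsr2, and the AP-1 letters of Gja1.

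Gja1 encodes the other main connexin of astrocytes. Its signal in cerebellum was 3206, 3506 and 3678 in stg-/- and 3049, 3194 and 3267 in stg+/+. In tg it was 3644, 3605 and 3327 in -/- and 3039, 3174 and 3095 in +/+, and in lh 3736, 3453 and 4223 in -/- and 2719, 3148 and 3143 in +/+. The groups were separate in tg and lh and overlapped in stg. The log2 changes were 0.13, 0.18 and 0.34 in stg, tg and lh, none of them called, and the mean effect was 0.22 (SE 0.05, adjusted p = 0.0302). It was lost with no filter (adjusted p = 0.0680), with no intensity trend (adjusted p = 0.0930) and in 10 of the 18 fits with an array left out. With all its probe sets averaged the change in lh passed (0.47, adjusted p = 0.0213). The 6 probe sets of Gja1 gave mean effects from 0.01 to 0.52, of which 3 were called.

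Sparc encodes a secreted matrix protein made by Bergmann glia and other astrocytes, and by vessels. In cerebellum it read 3504, 4220 and 3976 in stg-/- and 3197, 3384 and 3129 in stg+/+. In lh it read 3559, 3312 and 3326 in -/- and 2938, 2770 and 2756 in +/+. In tg it read 3720, 3346 and 3653 in -/- and 3409, 3334 and 3195 in +/+. The groups were separate in stg and lh and overlapped in tg through a single array. The mean effect was 0.21 (SE 0.05, adjusted p = 0.0187), from changes of 0.27, 0.11 and 0.27 in stg, tg and lh. It held in all 18 fits with an array left out and was lost with no intensity trend (adjusted p = 0.0688).

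Hepacam, an adhesion protein at astrocyte contacts and the partner of Mlc1, read 461, 504 and 462 in tg-/- and 291, 357 and 375 in tg+/+ cerebellum. In stg it read 436, 415 and 422 in -/- and 375, 339 and 407 in +/+, and in lh 456, 359 and 403 in -/- and 396, 379 and 347 in +/+. The groups were separate in tg and stg and overlapped in lh. The mean effect was 0.26 (SE 0.07, adjusted p = 0.0429), with 0.48 (adjusted p = 0.0637) in tg, 0.19 in stg and 0.11 in lh. This call was lost in 14 of the 18 fits with an array left out, with no filter (adjusted p = 0.0602), with no intensity trend (adjusted p = 0.0860) and when both its probe sets were averaged (adjusted p = 0.117). Mlc1, the endfoot membrane protein, had a mean effect of 0.09 (adjusted p = 0.724).

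The glutamate transporters, which clear the transmitter from synapses, did not pass in any line. Slc1a3, the main transporter of Bergmann glia, read 2485, 2004 and 2936 in stg-/- and 2584, 2594 and 2123 in stg+/+. In tg it read 2070, 2048 and 1635 in -/- and 2045, 1943 and 1770 in +/+, and in lh 1813, 2668 and 1738 in -/- and 1823, 2629 and 2051 in +/+. The groups overlapped in each line, and the log2 changes were 0.01, -0.01 and -0.08 in stg, tg and lh. A second probe set of Slc1a3 gave 0.43 in stg (adjusted p = 0.0593) and -0.37 in lh (adjusted p = 0.277), so its probe sets disagreed.

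Slc1a2, the main transporter of forebrain astrocytes, read 2008, 1390 and 1799 in stg-/- and 2074, 1366 and 1932 in stg+/+ cerebellum. In tg it read 1988, 2282 and 2356 in -/- and 2046, 1867 and 2220 in +/+. In lh it read 1259, 1298 and 1304 in -/- and 1178, 1211 and 1155 in +/+, separate groups with a log2 change of 0.12 (adjusted p = 0.911). Both lh groups lay below every array of the other lines, and the +/+ groups differed among the lines (adjusted p of the F test 0.0137, which 0.881% of all probe sets passed). That call was lost with no intensity trend (adjusted p = 0.0647) and without any of the lh+/+ arrays or tg+/+ replicate 3 (adjusted p = 0.0517 to 0.0611). Glul, the glutamine synthetase that converts the glutamate taken up, had changes of 0.02, 0.22 and -0.04 in stg, tg and lh. Its tg-/- arrays all lay above the tg+/+ arrays, without passing (adjusted p = 0.672).

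**Figure D3:**
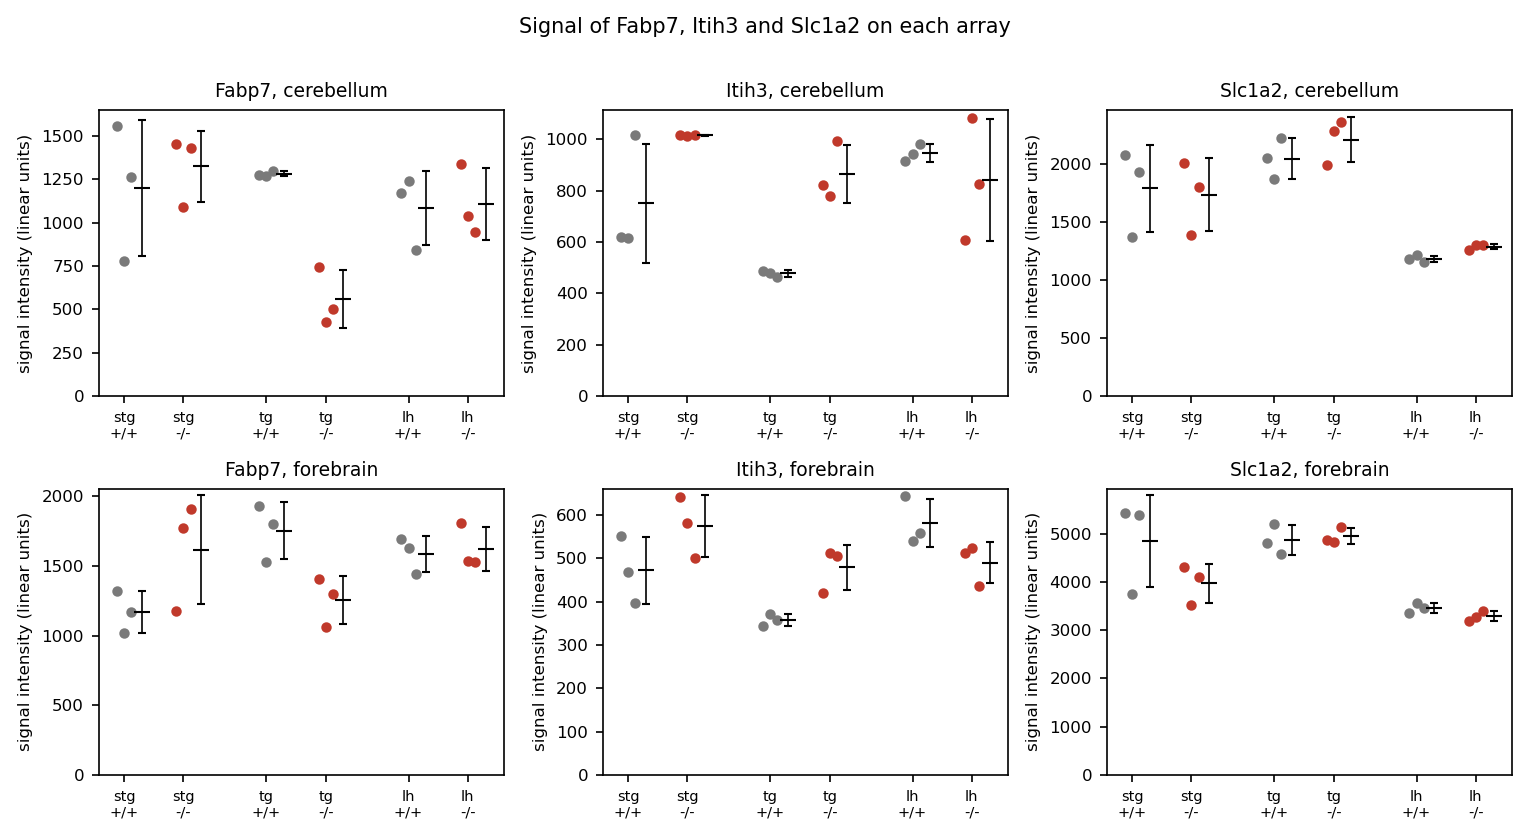
Signal of Fabp7, Itih3 and Slc1a2 on each array by line and tissue, on a linear axis from 0, with grey points for +/+, red points for -/-, and group means with SD bars. In cerebellum Fabp7 is low on the 3 tg-/- arrays (429 to 745), Itih3 is low on the 3 tg+/+ arrays (464 to 489), and Slc1a2 is low in both lh groups (1155 to 1304).

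Aqp4, the water channel of endfeet, read 3473, 2972 and 3487 in lh-/- and 2075, 2306 and 2380 in lh+/+ cerebellum. In stg it read 2584, 3036 and 2773 in -/- and 2244, 2751 and 2756 in +/+, and in tg 3279, 2534 and 2195 in -/- and 2573, 2545 and 2324 in +/+. Only the lh groups were separate. The changes were 0.55 in lh (SE 0.12, adjusted p = 0.0957), 0.12 in stg and 0.09 in tg, and the mean effect was 0.25 (adjusted p = 0.0811). None passed, and the F test for a difference among lines gave an adjusted p of 0.547. The lh change and the mean effect passed with the block of records (adjusted p = 0.0275 and 0.0262) and with quantile normalization (adjusted p = 0.0370 and 0.0390). The mean effect also passed without tg-/- replicate 3 (adjusted p = 0.0334). A second probe set of Aqp4 had a mean effect of 0.30 that was called (adjusted p = 0.0446).

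The ion transport genes Slc4a4 and Atp1b2 did not pass in any line either. Slc4a4, the sodium bicarbonate cotransporter, had changes of 0.19, 0.10 and -0.11 in stg, tg and lh, with separate groups in stg. Atp1b2, the sodium pump subunit of astrocytes, had 0.10, -0.13 and -0.16, with the tg-/- arrays (3111 to 3722) all below the tg+/+ arrays (3737 to 3867).

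Fabp7, a fatty acid binding protein of radial and Bergmann glia, fell in tg cerebellum. It read 745, 429 and 503 in tg-/- and 1273, 1270 and 1297 in tg+/+. In stg it read 1449, 1089 and 1432 in -/- and 1553, 780 and 1265 in +/+, and in lh 1338, 1036 and 943 in -/- and 1169, 1236 and 839 in +/+. The tg-/- arrays were the lowest 3 of the 18, and the groups overlapped in the other lines. The change in tg was -1.23 (SE 0.22, adjusted p = 0.0111), from 1280 ± 14.9 to 559 ± 165.

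This call held under 11 of 11 alternatives. It was lost without tg-/- replicate 2 (adjusted p = 0.0864) or 3 (adjusted p = 0.0660) and without tg+/+ replicate 2 (adjusted p = 0.0581) or 3 (adjusted p = 0.0542). The changes of 0.19 in stg and 0.04 in lh did not pass, and the F test for a difference among lines gave an adjusted p of 0.0931. That test passed with array weights (adjusted p = 0.0197) and with the block of records (adjusted p = 0.0266). In forebrain Fabp7 read 1403, 1062 and 1299 in tg-/- and 1930, 1526 and 1800 in tg+/+, also with no overlap, a change of -0.48 that did not pass (adjusted p = 0.485).

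The window before the start of Fabp7 (chr10:57784673-57784922, plus strand, GRCm38.p6) is shown because this member had the largest fall. It held 1 match to the RBPJ letters, 244 bases before the start, in capitals.
Fabp7: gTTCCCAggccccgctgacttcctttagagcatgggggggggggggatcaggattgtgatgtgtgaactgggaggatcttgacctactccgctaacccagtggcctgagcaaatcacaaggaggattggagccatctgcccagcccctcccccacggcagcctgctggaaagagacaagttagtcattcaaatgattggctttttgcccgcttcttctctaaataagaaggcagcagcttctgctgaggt
Neither of the other 2 motifs was in this window.

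Itih3 encodes a secreted heavy chain that binds hyaluronan. In tg cerebellum it read 823, 781 and 994 in -/- and 489, 480 and 464 in +/+. In stg it read 1017, 1012 and 1017 in -/- and 618, 617 and 1017 in +/+, and in lh 610, 1084 and 826 in -/- and 915, 943 and 982 in +/+. The tg groups were separate, and the tg+/+ arrays were the lowest 3 of the 18. Itih3 rose in tg by 0.85 (SE 0.18, adjusted p = 0.0328), a call lost on leaving out any of the 6 arrays (adjusted p = 0.0712 to 0.181) and with no intensity trend (adjusted p = 0.109). The +/+ groups differed among the lines in cerebellum (adjusted p = 0.0209) and in forebrain (adjusted p = 0.0490, with 0.414% of all probe sets called). In cerebellum that call was lost with no intensity trend (adjusted p = 0.0824) and without any of the tg+/+ or lh+/+ arrays (adjusted p = 0.0520 to 0.0937). In forebrain it was lost with no filter (adjusted p = 0.0532), the 60th percentile filter (adjusted p = 0.0503), a constant of 1 (adjusted p = 0.0519) and no intensity trend (adjusted p = 0.141). It was also lost there without stg+/+ replicate 2 or any tg+/+ or lh+/+ array (adjusted p = 0.0778 to 0.193). The call was lost too without the pituitary arrays, a fit that left stg+/+ forebrain with a single array. The change was 0.48 (adjusted p = 0.292) in stg and -0.21 (adjusted p = 0.866) in lh, and the F test among lines gave an adjusted p of 0.178. In stg a single array decided the result: without stg+/+ replicate 3 the change was 0.72 and was called (adjusted p = 0.0390).

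Apoe, the lipid carrier secreted by astrocytes, read 6192, 6390 and 5494 in stg-/- and 4286, 5380 and 3970 in stg+/+ cerebellum. The groups were separate, with a change of 0.42 (SE 0.12, adjusted p = 0.104) that did not pass. It was 0.14 in tg and 0.19 in lh, with overlapping arrays, and the mean effect was 0.25 (adjusted p = 0.0652). Leaving out stg+/+ replicate 2 brought both the stg change (0.54, adjusted p = 0.0258) and the mean effect (adjusted p = 0.0190) past the threshold. Clu, a secreted chaperone, had changes of 0.16, 0.03 and 0.19 in stg, tg and lh. Sparcl1, a secreted protein that promotes synapse formation, had 0.12, -0.08 and -0.13.

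Gdf10, a growth factor that marks Bergmann glia, read 1767, 1585 and 1691 in tg-/- and 1249, 1307 and 1325 in tg+/+. In stg it read 1512, 1957 and 1842 in -/- and 1391, 1478 and 1581 in +/+, and in lh 1284, 1666 and 1457 in -/- and 1292, 1573 and 1429 in +/+. Only the tg groups were separate. The changes were 0.38 in tg (SE 0.11, adjusted p = 0.192), 0.25 in stg and 0.03 in lh, and the mean effect was 0.22 (adjusted p = 0.0831).

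Aldoc, the aldolase of astrocytes that also marks bands of Purkinje cells, read 9076, 9208 and 8070 in stg-/- and 8471, 8594 and 6150 in stg+/+. In tg it read 8424, 7685 and 9240 in -/- and 8058, 7840 and 9087 in +/+, and in lh 9004, 7012 and 7262 in -/- and 10109, 8165 and 7726 in +/+. The groups overlapped in each line, and the changes were 0.20, 0.02 and -0.16. A second, dimmer probe set of Aldoc gave 0.74 in tg (adjusted p = 0.0691), where the probe set used gave 0.02.

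Aldh1l1, a folate enzyme used as a general astrocyte marker, had changes of 0.17, 0.34 and 0.35 in stg, tg and lh and a mean effect of 0.29 (adjusted p = 0.0923), with separate groups in tg and lh. Ndrg2, a cytoplasmic protein of mature astrocytes, had 0.26, 0.17 and -0.05, with separate groups in stg and tg. Fgfr3, a growth factor receptor, had -0.08, 0.32 and 0.01, with separate groups in tg. Sox9, the transcription factor of the glial lineage, had 0.28, 0.17 and 0.13, with separate groups in stg, and Ntsr2, a neurotensin receptor, had 0.17, 0.18 and 0.14. S100b, a calcium binding protein, was the only resting gene below 0 in all 3 lines (-0.06, -0.06 and -0.07), as were 13.5% of all probe sets. The spread of S100b among arrays of a group was the smallest of the members in cerebellum, an SD of 0.07 on the log2 scale, against 0.33 for Fabp7 and 0.29 for Gfap.

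Counted over the lines and the tested members, 12 of 24 resting genes were above 0 in all 3 lines in cerebellum, where 16.3% of all probe sets were. All -/- arrays lay above all +/+ arrays for 7 resting genes and Gfap in stg, with 8.13% of all probe sets doing so. In tg 9 resting genes and Gfap did so (7.23% of all probe sets), and in lh 6 resting genes with Gfap and Vim (7.21%). Groups separated in the other direction for Vim alone in stg (7.48% of all probe sets), for Fabp7 and Atp1b2 in tg (6.81%) and for no member in lh (5.47%).

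**Figure D4:**
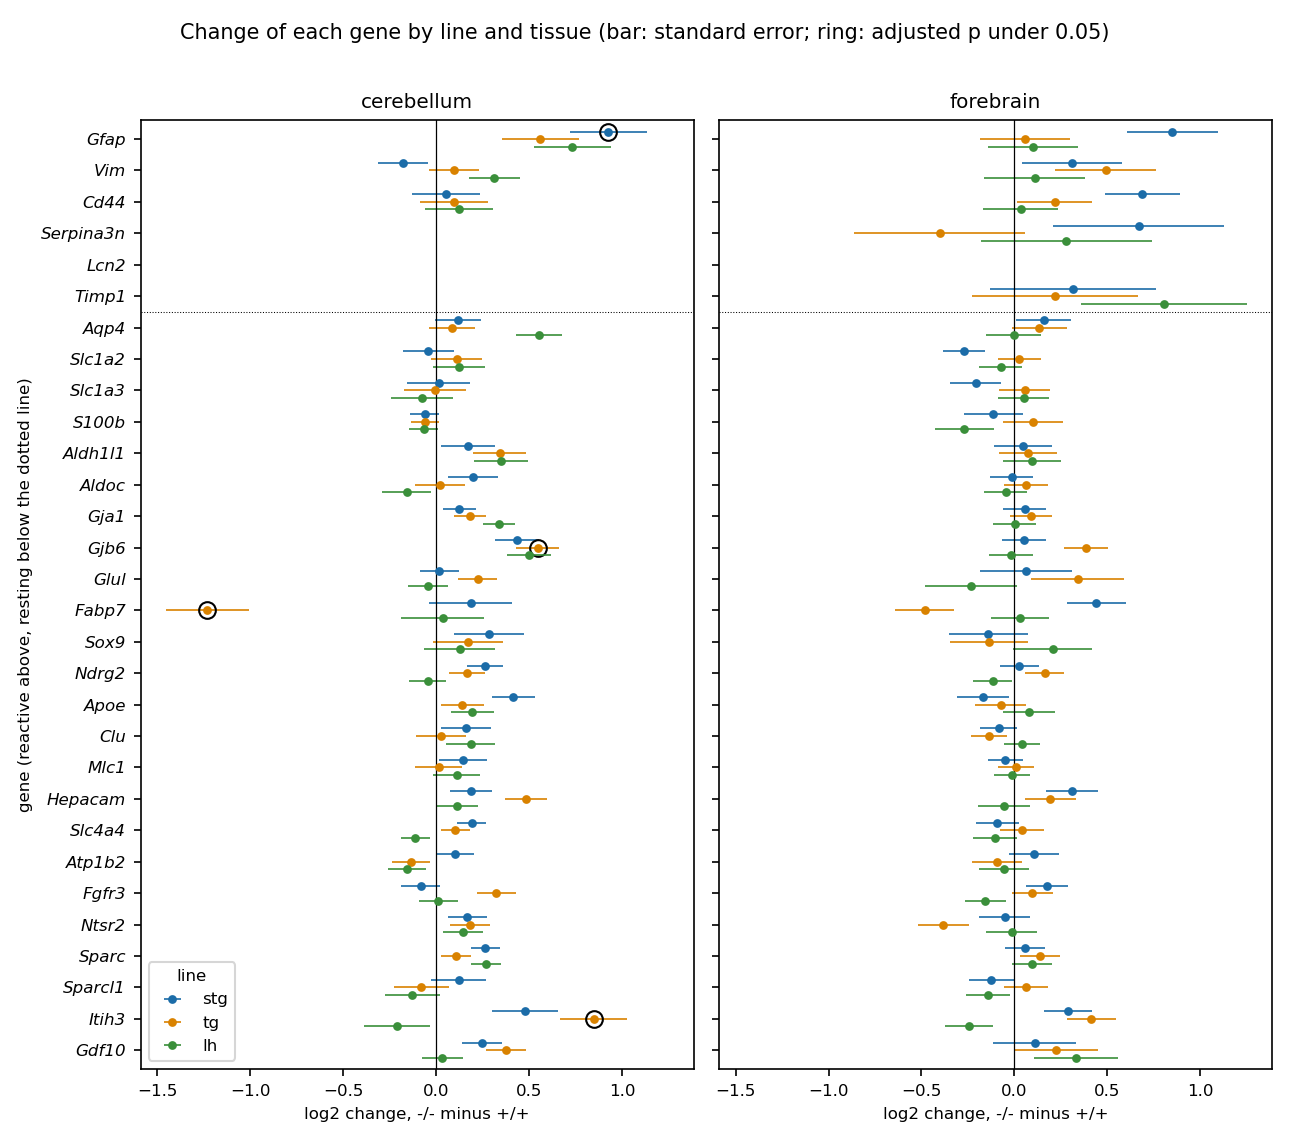
Log2 change, -/- minus +/+, of each of the 30 members in each line, for cerebellum and forebrain, with SE bars. Blue points are stg, orange tg and green lh, black rings mark called changes, and a dotted line parts the reactive genes from the resting genes. Most resting genes lie just above 0 in cerebellum and on both sides of 0 in forebrain, and the ringed points are Gfap in stg and Gjb6, Itih3 and Fabp7 in tg, all in cerebellum.

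The samples of stg cerebellum with the same replicate number deviated together, with correlations of 0.156, 0.188 and 0.380. Correlations by replicate number were 0.292, 0.0404 and 0.244 in tg and 0.225, 0.0948 and 0.333 in lh, so stg did not stand alone. When samples were blocked by that number, 5 of the 27 members rose in stg cerebellum and 3.77% of all probe sets were called, 1.55% as higher. They were Gfap (adjusted p = 4.80e-04), Apoe (adjusted p = 0.0109), Gjb6 (adjusted p = 0.0165), Sparc (adjusted p = 0.0245) and Ndrg2 (adjusted p = 0.0370). The labels do not say what the number stands for.

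Of the other reactive genes, Vim, the second intermediate filament, read 1670, 1554 and 1444 in stg-/- and 1803, 1705 and 1769 in stg+/+ cerebellum. In lh it read 1721, 1806 and 1711 in -/- and 1262, 1596 and 1374 in +/+. The groups were separate in both lines and in opposite directions, with changes of -0.18 (adjusted p = 0.709) and 0.31 (adjusted p = 0.587), and the F test among lines did not pass (adjusted p = 0.674). The other 2 Vim probe sets gave 0.20 and -0.04 in stg and 0.27 and 0.33 in lh, so the sign in stg depended on the probe set. Cd44, the hyaluronan receptor, had changes of 0.05, 0.10 and 0.12 with overlapping groups. Serpina3n, Timp1 and Lcn2 were below the filter in cerebellum. Serpina3n, a protease inhibitor of reactive astrocytes, read 0.678 to 12.1 there, and Timp1, a metalloproteinase inhibitor, read 4.61 to 37.8. All tg-/- arrays of Serpina3n (7.76, 5.25 and 12.1) lay above the tg+/+ arrays (2.52, 4.29 and 0.678), and all lh-/- arrays of Timp1 (30.1, 31.8 and 36.4) above the lh+/+ arrays (4.61, 27.5 and 25.5). The filter left these genes out, so the changes were not tested.

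In forebrain no resting or reactive gene was called in any line. Limma called 0.0111% of all probe sets in stg, 0.189% in tg and 0.0148% in lh forebrain. Of the 24 resting genes, 13, 18 and 9 were above 0 in stg, tg and lh, with medians of 0.04, 0.07 and -0.02. Over all probe sets 50.4%, 50.6% and 52.9% were above 0. At an unadjusted p below 0.05 the resting genes counted 3 higher and 1 lower in stg, 2 higher and 2 lower in tg, and none in lh. Of all probe sets 1.35% were higher and 1.21% lower by that rule in stg, 3.02% and 2.66% in tg, and 2.55% and 1.32% in lh. No -/- against +/+ comparison in forebrain called a member under any alternative.

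The reactive genes in forebrain were mostly above 0, 5 of 5 in stg, 4 of 5 in tg and 5 of 5 in lh, with medians of 0.67, 0.22 and 0.11. Gfap read 950, 1704 and 652 in stg-/- and 554, 556 and 582 in stg+/+ forebrain. Cd44 read 70.8, 92.9 and 65.7 in stg-/- and 45.3, 41.1 and 51.7 in stg+/+. Both genes were separate between the groups, as were 3.59% of all probe sets in that direction, with changes of 0.85 and 0.69 that did not pass after adjustment (unadjusted p = 0.0025 and 0.0031 in limma). Serpina3n read 119, 191 and 45.3 in stg-/- and 39.2, 64.9 and 96.3 in stg+/+, with overlap.

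A single array was the highest of the 18 forebrain arrays for 6 members: stg-/- replicate 2, for Gfap, Vim, Cd44, Serpina3n, Aldh1l1 and Aldoc. Without it the stg forebrain change of Gfap was 0.48, that of Cd44 0.54 and the median of the reactive genes 0.35. Without the 3 arrays with pituitary transcripts, which include stg+/+ replicates 1 and 2, stg+/+ replicate 3 alone was left in its group. Against that single array the stg forebrain change was 0.81 for Gfap, 0.52 for Cd44 and 0.07 for Serpina3n. The 3'-minus-5' log2 difference of the Actb control probe sets was lower in stg-/- (0.68 to 0.79) than in stg+/+ forebrain (0.84 to 1.14), by 0.19. In lh forebrain it was lower in -/- too (0.835 to 0.875 and 0.882 to 0.911). In both lines the exact two-sided permutation p was 0.1, the smallest possible with 3 arrays against 3. The Gapdh control overlapped in stg forebrain (-0.471 to -0.357 in -/- and -0.467 to -0.250 in +/+, permutation p = 0.6). The part of RNA quality in these changes was not tested.

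In tg forebrain Gfap read 579, 462 and 545 in -/- and 522, 611 and 405 in +/+, and in lh 523, 713 and 428 in -/- and 525, 515 and 478 in +/+. The groups overlapped, with changes of 0.06 and 0.10. Gjb6 read 814, 651 and 646 in tg-/- and 583, 486 and 541 in tg+/+ forebrain, with no overlap and a change of 0.39 (SE 0.12, adjusted p = 0.393). In stg and lh forebrain its changes were 0.05 and -0.02. Itih3 was higher on all tg-/- arrays (419, 513 and 506) than on the tg+/+ arrays (345, 372 and 358), with a change of 0.41 (adjusted p = 0.438). In lh forebrain the order was turned, with 512, 524 and 436 in -/- and 644, 541 and 558 in +/+. Ntsr2 was lower on all tg-/- arrays (1192 to 1236) than on the tg+/+ arrays (1277 to 1993), a change of -0.38 (adjusted p = 0.645).

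One tg+/+ forebrain array stood apart for several members. On replicate 2 Glul read 2272, against 6116 and 6628 on the other tg+/+ arrays, and Vim read 175, against 484 and 434. That array was the lowest of the 18 for 9 members (Vim, Cd44, Aqp4, Slc1a3, Gja1, Gjb6, Glul, Ndrg2 and Fgfr3) and the highest for Clu and Atp1b2. Without it the tg forebrain median of the resting genes stayed between 0.04 and 0.11, the range over all 6 left-out arrays.

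Counted over all members, the -/- arrays all lay above the +/+ arrays in forebrain for Gjb6 and Itih3 in tg (4.64% of all probe sets) and for Gdf10 in lh (6.2%), and below them for Fabp7 and Ntsr2 in tg (5.06%) and for Glul and Itih3 in lh (4.5%). In stg Fgfr3 was separate besides Gfap and Cd44. Aqp4, Slc1a2, Slc1a3, Gja1 and Aldoc overlapped between the groups of each line. Aqp4 read 1031 to 1342 in stg-/- against 977 to 1103 in stg+/+, 897 to 1204 against 781 to 1134 in tg, and 1061 to 1363 against 1041 to 1322 in lh. Slc1a2 read 3518 to 4306 against 3741 to 5416 in stg, a change of -0.27 that did not pass, and its changes were 0.03 and -0.07 in tg and lh. Slc1a3 had forebrain changes of -0.21, 0.06 and 0.05 in stg, tg and lh, and Gja1 had 0.06, 0.09 and 0.00. Aldoc had -0.02, 0.06 and -0.05. Gdf10 was separate in lh, with 78.4, 83.0 and 64.7 in -/- and 53.8, 61.4 and 61.9 in +/+, a change of 0.33 that did not pass.

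Whether an effect differed between the tissues was tested as an interaction over all 36 arrays, and no member passed in any line (0.248%, 0.0259% and 0.0111% of all probe sets did in stg, tg and lh). For Gfap the cerebellar minus the forebrain effect was 0.08 in stg, 0.50 in tg and 0.63 in lh. For Gjb6 it was 0.38 in stg (adjusted p = 0.712), 0.16 in tg and 0.52 in lh (adjusted p = 0.647). The smallest adjusted p of a member was 0.348, for Apoe in stg, with a difference of 0.58. Calls in cerebellum and none in forebrain therefore do not show that the tissues differed.

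In +/+ mice the members differed widely between the tissues, in a comparison where 58.2% of all probe sets were called. That fit too treated all arrays as independent, though the tissues may share animals. Of the 24 resting genes 12 were higher and 6 lower in cerebellum, against 32.4% and 25.8% of all probe sets. Gdf10 had the largest difference of the members, 4.33 on the log2 scale (SE 0.10, adjusted p = 2.40e-26), with 1249 to 1581 on the +/+ cerebellar arrays and 51.2 to 94.9 on the +/+ forebrain arrays. Vim was higher in cerebellum by 2.09, S100b by 1.40, Slc1a3 by 1.30, Aqp4 by 1.19, Slc4a4 by 1.04 and Cd44 by 1.02. The members lower in cerebellum were led by Slc1a2 (-1.41) and Gfap (-0.86), followed by Ntsr2 (-0.63), Clu (-0.61), Apoe (-0.50), Fabp7 (-0.34) and Fgfr3 (-0.32). Gjb6 (0.09), Gja1 (0.12), Hepacam (0.15) and Aldh1l1 (0.08) did not pass. Among the members, the astrocyte markers Aldh1l1, Aqp4, Slc1a2, Gfap and Gja1 passed the filter in both tissues. So did the Bergmann glia markers Gdf10, Slc1a3 and Fabp7. Hopx, a Bergmann glia marker outside the members, was also set as a marker, and whether it passed is not given here. Passing the filter does not show that Bergmann glia, which are cells of the cerebellum, were in the forebrain samples.

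**Figure D5:**
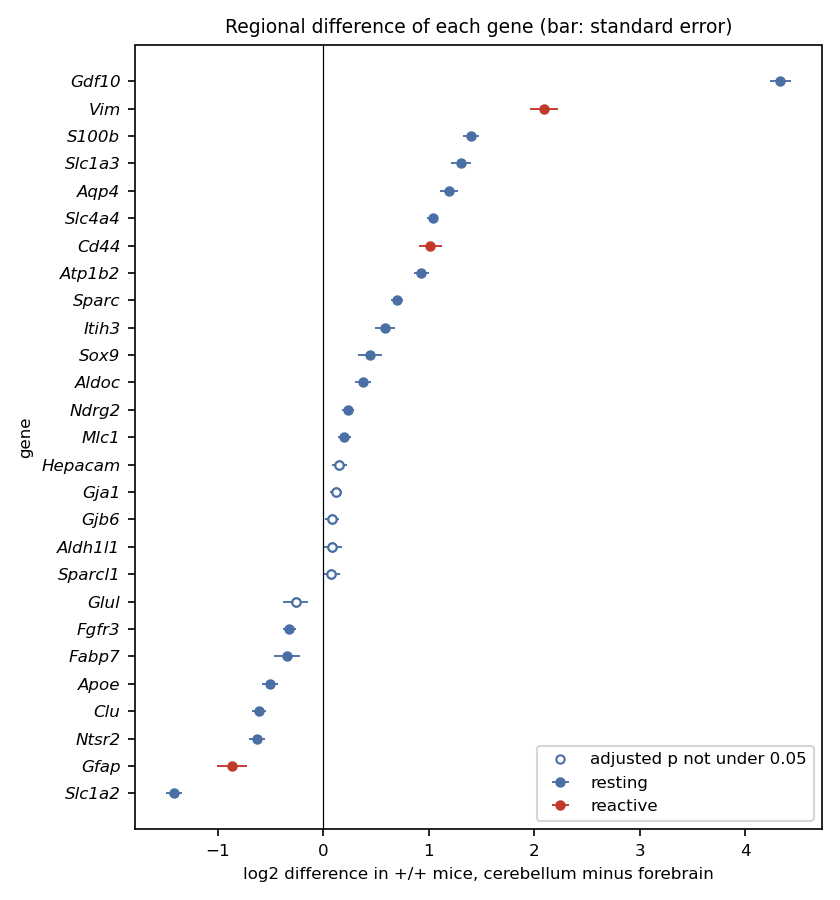
Log2 difference, cerebellum minus forebrain, of each tested member in +/+ mice (mean of the 3 lines), with SE bars. Blue points are resting and red points reactive genes, filled where called and white where not. Gdf10 stands at 4.33, and Slc1a2 (-1.41) is the lowest.

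On the same arrays, astrocyte genes outside the 30 were mostly above 0 in cerebellum. The lists used here, like the members, were chosen with earlier results of these data known. Of 29 further astrocyte genes tested, 24 had a mean effect above 0 in cerebellum, with a median of 0.18, against 51.7% of all probe sets above 0. Of these Ttyh1, a chloride channel (0.30, adjusted p = 0.0123), Ednrb, the endothelin receptor (0.25, adjusted p = 0.0182), Pla2g7, a lipase (0.31, adjusted p = 0.0312), and Slc25a18, a mitochondrial glutamate carrier (0.28, adjusted p = 0.0424), rose, where 1.04% of all probe sets did. By line, 25, 21 and 21 of the 29 were above 0 in stg, tg and lh, against 52.3%, 48.4% and 53.9% of all probe sets. In forebrain 17, 18 and 13 were above 0, against 50.4%, 50.6% and 52.9%, and none was called.

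Of 14 further Bergmann glia genes tested, 8 had a mean effect above 0, near the 51.7% of all probe sets, with a median of 0.04, and 1 rose: Notch2, a receptor of the Notch pathway (0.32, adjusted p = 0.0429). Of 24 further reactive genes, 19 were above 0, with a median of 0.15. Among them Serping1, a complement inhibitor, rose and Tnc, a matrix protein, fell. Serping1 read 298, 375 and 322 in stg-/- and 190, 171 and 213 in stg+/+ cerebellum, a change of 0.78 (adjusted p = 0.00106). Its mean effect was 0.43 (adjusted p = 0.00159). Tnc had a mean effect of -0.84 (adjusted p = 0.0208) and read 121.6, 49.3 and 86.1 in stg-/- against 78.2 to 99.2 in stg+/+, with overlap. In tg and lh its -/- arrays (24.9 to 61.5) all lay below the +/+ arrays (74.7 to 108.9). Of 16 genes of cytokine and growth factor signalling in reactive astrocytes, among them Stat3 and Socs3, 10 were above 0, with a median of 0.04, and none was called.

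Markers of other cell types moved with genotype in the same cerebellar samples. Of the microglia markers 10 of 10 tested had a mean effect above 0, with a median of 0.37, and the complement genes C1qa, C1qb and C1qc rose (0.34, 0.48 and 0.67). Of all probe sets 51.7% had a mean effect above 0 and 1.04% were called as higher. The summed signal of 13 microglia markers was 1660 to 2222 in stg-/- and 1583 to 1634 in stg+/+, 2062 to 2402 and 1755 to 1872 in tg, and 2103 to 2159 and 1485 to 1693 in lh. The groups were separate in each line, and no such separation was seen in forebrain. Of 11 oligodendrocyte markers all 11 were above 0, with a median of 0.14, and Mobp and Mal rose.

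Of 7 granule cell markers 5 were below 0, and Gabra6 (-0.37, adjusted p = 2.21e-04) and Neurod1 (-0.23) fell. Their summed signal was 25356 to 26609 in stg-/- and 27526 to 32366 in stg+/+, 29795 to 31955 and 31236 to 33178 in tg, and 26020 to 26928 and 30819 to 33189 in lh, separate in stg and lh. Of 9 general neuron markers 8 were below 0, with a median of -0.20, and Snap25 fell. For comparison with both lists, 51.7% of all probe sets had a mean effect above 0 and 0.933% were called as lower. Of 8 Purkinje cell markers tested none was called. Over all probe sets 52.3%, 48.4% and 53.9% were above 0 in stg, tg and lh. Of the 8 Purkinje cell markers 7 were above 0 in stg (median 0.33), 6 in tg (median 0.05) and 2 in lh (median -0.06). Their summed signal was 42471 to 45438 in stg-/- and 33055 to 40487 in stg+/+, separate groups. It overlapped in tg (37976 to 43035 and 39261 to 41620) and in lh (36657 to 40383 and 39315 to 41731).

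In lh cerebellum the ependyma and choroid plexus markers (9 of 9 above 0, median 0.95) and the pericyte and meninges markers (10 of 10, median 0.56) were above 0 too. In stg and tg the ependyma and choroid plexus markers were above 0 for 6 and 7 of 9, with medians of 0.35 and 0.31. The pericyte and meninges markers were above 0 for 5 of 10 in each. Over all probe sets 53.9% were above 0 in lh, 52.3% in stg and 48.4% in tg. The summed ependyma and choroid plexus signal overlapped in lh (10523 to 14221 in -/- and 7364 to 14550 in +/+), in stg (12453 to 16242 and 3999 to 13933) and in tg (12277 to 14839 and 11942 to 13065). That of pericytes and meninges was separate in lh (2595 to 3209 and 2028 to 2087) and overlapped in stg and tg. The part of these cell types in the changes of the glial genes was not tested.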

How the data were processed

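Total RNA of forebrain and cerebellum was measured on 36 arrays. The deposited values are linear signal intensities, 1 per probe set. The sources used here do not say how the authors made these intensities, but each array has a mean of 150.001 after trimming 2% at each end, a common scaling. The limit of detection is unknown, and 3 arrays per group limit the precision.

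Computed from these were log2(signal + 2.98), with the 10th percentile of all values as the constant, which shrinks changes near the floor. Control probe sets (64 of 45101) were left out, and the 27022 whose mean lay above the 40th percentile were tested. The tests of group means used limma 3.58.1 (R 4.3.3, intensity trend, two-sided, Benjamini-Hochberg), over 18 arrays per tissue (12 residual degrees of freedom) or 36 for tissue differences, after a check on simulated data. Symbols came from the platform annotation: 34958 probe sets had 1 symbol, 932 several and 9211 none, and 34754 were matched by Entrez ID. Each gene was read by its probe set with the highest mean.

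All 30 members were named, with full values for those called and for 8 fixed genes. From other lists the called genes were named, at most 4 per list. The members and lists were chosen with earlier results of these data known. Same-numbered cerebellar samples were checked for pairing. Every correlation was above 0.1 in stg (0.156 to 0.380), a pairing read from the data, and not in tg (0.0404 lowest) or lh (0.0948 lowest). The number overlaps the block of records, whose part in these correlations was not tested. Alternatives were other constants, filters, quantile normalization, no intensity trend, array weights, blocks by record and replicate number, averaged probe sets, single-line fits and left-out arrays.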

Additional observations from a re-analysis of the deposited data

Results flagged for a closer look

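Over the members 270 pairs of effects were taken, between lines within a tissue or between cerebellum and forebrain within a line. That number includes pairs with a member below the filter, which could not be flagged. In 2 pairs, both between lines, all -/- arrays lay on opposite sides of the +/+ arrays in the lines compared. For Vim in cerebellum the stg effect minus the lh effect was -0.49, with -0.18 in stg (all -/- below) and 0.31 in lh (all -/- above). For Itih3 in forebrain the tg effect minus the lh effect was 0.66, with 0.41 in tg (all -/- above) and -0.24 in lh (all -/- below). These pairwise differences were not tested, and the F test over the 3 lines did not pass for either gene (adjusted p = 0.674 and 0.910).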

How the results depend on the processing

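No called result changed direction. Under the alternatives other than left-out arrays the resting and reactive medians moved by less than the spread between replicates, except the reactive median of tg forebrain, 0.087 with array weights. Near 0, the reactive median of stg cerebellum and the resting median of lh forebrain changed sign with array weights, and the latter also with quantile normalization. Counts of called probe sets moved more. A line-by-record block took them to 689 (stg cerebellum), 287 (tg), 137 (lh), 988 (mean effect of the 3 lines), 206 (differs among lines), 77 (tg forebrain), 2 (lh forebrain), 7 (mean, forebrain), and 133 and 13 (tissue interactions, stg and lh). The replicate block gave 1018, 429 and 211 for stg, tg and lh cerebellum, 1237 for the mean and 480 for the difference among lines. It called 5 members higher and 1 lower in tg and 4 higher in lh. In tg and lh samples shared only a number. All stg and lh, but not all tg, samples correlated best with their own number. The block could not be fitted for the +/+ F tests and was not run in forebrain. Array weights gave 390 (tg cerebellum), 180 (differs among lines), 518 (+/+), in forebrain 5, 117, 9, 15, 17 and 187 (stg, tg, lh, mean, differs, +/+), and 133, 19 and 13 for the interactions. With no intensity trend the counts were 341, 47 and 135 (mean, differs, +/+) in cerebellum and 27, 2, 3 and 60 (tg, lh, differs, +/+) in forebrain. The 6 arrays alone gave 194 (stg) and 6 (lh cerebellum). Without the pituitary arrays forebrain had 6 (stg), 4 (differs) and 43 (+/+). No filter gave 2 (mean, forebrain), and a constant of 16 gave 11 (differs, forebrain). Leaving out each array in turn gave 225 to 291, 63 to 116 and 16 to 36 in stg, tg and lh cerebellum, 345 to 500 for the mean, 47 to 92 for differs and 135 to 217 for +/+. In forebrain the ranges were 2 to 3, 13 to 36, 1 to 8, 2 to 7, 3 to 12 and 54 to 107, the interactions 45 to 68, 3 to 8 and 1 to 7, and the +/+ tissue difference 15180 to 15644. Resting medians ran 0.14 to 0.20, 0.09 to 0.16 and 0.02 to 0.11 in stg, tg and lh cerebellum and -0.018 to 0.066, 0.04 to 0.11 and -0.08 to 0.04 in forebrain. Reactive medians ran -0.14 to 0.18, 0.03 to 0.21 and 0.26 to 0.41 in cerebellum and 0.35 to 0.78, 0.079 to 0.23 and -0.01 to 0.25 in forebrain. The cause of these moves was not tested. Serpina3n, Timp1 and Lcn2 in cerebellum, and Lcn2 in forebrain, were below the filter and not tested, and 3 arrays per group limit the precision.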
